A study of Mus musculus with 24 samples.

Results

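Endothelial and capillary genes are the subject here: 37 genes that mark the cells lining blood and lymph vessels, measured on 24 arrays of mouse lung. Each gene was read by a probe set annotated to it alone, the 1 with the highest mean over the 24 arrays where a gene had several. All 37 genes had such a probe set, among 18193 genes measured in this way, and 19 of them had further probe sets, which brought the total to 69.

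The arrays were single-colour Affymetrix mouse arrays of total RNA from flash-frozen tissue. Tumours were visible nodules dissected by hand from the lungs of bitransgenic mice given doxycycline in the food for 3 to 6 months, so that a transgene for mutant EGFR, the epidermal growth factor receptor, was switched on. L858R activates the EGFR kinase, and T790M makes that kinase less sensitive to drugs that block it. The labels write the genotypes as C/L858R (L858R tumours, strain FVB mixed, 4 arrays), C/L+T (L858R+T790M tumours, strain FVB, 5 arrays) and C/T790M (T790M tumours, strain FVB, 5 arrays). Normal lungs came from littermates without transgenes or with 1 of them, also on doxycycline: 5 arrays carry the strain label FVB mixed (mixed-strain normals) and 5 carry FVB (FVB normals). The labels do not name the promoter that drives the transgene, the ages of the mice or which normals were mono-transgenic. Whether the arrays of a group stem from different animals is not said either, and a p-value here reflects only how much these samples varied. A dissected nodule holds tumour cells together with vessels, stroma and blood cells. Less RNA of an endothelial gene in such a sample can mean fewer endothelial cells or less RNA per cell, and bulk arrays cannot tell these apart.

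The inner lining of every vessel is a sheet of endothelial cells held together by VE-cadherin, PECAM and claudins. These cells read growth factors through VEGF receptors and the TIE receptors, read vasoactive peptides through receptors coupled to G proteins, and keep their identity through transcription factors of the ETS and SOX families. In the lung nearly all of this surface is alveolar capillary, which holds a pair of cell kinds, the wide aerocyte that carries Car4, Ednrb and Apln, and the general capillary cell that carries Gpihbp1, Aplnr and Kit. Plvap is a diaphragm protein of endothelium, Vwf marks larger vessels and Lyve1 lymphatic or sinus-like linings, and Lyve1 is also carried by some tissue macrophages.

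ETS factors, among them Erg, bind DNA at sites built on GGAA. To show what such letters look like next to members of this list, the 250 bases before the outermost start site of 4 members are printed. They run 5′ to 3′ on the gene's own strand, from RefSeq on build GRCm38.p6. Clec14a (chr12:58269259-58269508, minus strand) and Egfl7 (chr2:26580833-26581082, plus strand) were called lower in each tumour group, and Car4 (chr11:84957504-84957753, plus strand) and Apln (chrX:48034854-48035103, minus strand) were not. Capitals mark CAGGAAG or CCGGAAG on either strand.
Clec14a: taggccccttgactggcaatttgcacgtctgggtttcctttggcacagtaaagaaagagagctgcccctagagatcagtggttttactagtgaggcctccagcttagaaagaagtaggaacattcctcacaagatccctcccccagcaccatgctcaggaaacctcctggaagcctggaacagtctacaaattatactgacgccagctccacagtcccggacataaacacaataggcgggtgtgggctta
Egfl7: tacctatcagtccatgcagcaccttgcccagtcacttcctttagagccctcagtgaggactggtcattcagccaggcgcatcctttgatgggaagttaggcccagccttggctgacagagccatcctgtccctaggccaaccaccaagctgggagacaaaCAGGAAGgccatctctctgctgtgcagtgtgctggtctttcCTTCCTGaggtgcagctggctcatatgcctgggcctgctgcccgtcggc
Car4: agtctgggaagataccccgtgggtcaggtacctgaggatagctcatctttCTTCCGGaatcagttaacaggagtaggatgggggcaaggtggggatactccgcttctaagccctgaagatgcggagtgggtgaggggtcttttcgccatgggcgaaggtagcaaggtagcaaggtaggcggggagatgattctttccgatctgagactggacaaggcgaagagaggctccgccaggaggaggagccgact
Apln: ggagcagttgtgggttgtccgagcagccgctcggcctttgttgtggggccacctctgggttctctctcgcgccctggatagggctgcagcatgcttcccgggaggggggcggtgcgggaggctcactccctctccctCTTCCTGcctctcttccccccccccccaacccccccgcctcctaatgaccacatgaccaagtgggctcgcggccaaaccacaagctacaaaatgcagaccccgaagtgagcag
Egfl7 held CAGGAAG once on each strand, Apln once on the opposite strand, Car4 held CCGGAAG on the opposite strand, and the stretch before Clec14a held neither. Further start sites of Egfl7, not printed, had 1 match and 0 matches. In the RefSeq table, 19 of the 37 members had windows of 300 bases (250 before and 50 after the start), 24 windows in all. CAGGAAG, on either strand, was in 8 of these 24 windows, belonging to Apln, Calcrl, Cyyr1, Egfl7, Emcn, Erg and Robo4, and in 13.3% of the 32851 windows of all genes. CCGGAAG was in 1 of the 24, that of Car4, and in 8.86% of all windows. AACAAT, a SOX core, was in 4 of the 24 (Calcrl, Emcn, Erg and Tek) and in 10.7% of all windows. These matches describe letters and not binding.

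Across the list, nearly every gene was lower in tumours than in normal lung. Values are log2 levels as the authors deposited them, so a difference of 1 is a factor of 2, and a gene is called at an adjusted p under 0.05 (limma, Benjamini-Hochberg over all 18193 genes). In L858R tumours against mixed-strain normals, 35 of 37 members were called lower and 0 higher, where 18.1% of all genes were called lower and 23.3% higher. In L858R+T790M tumours against FVB normals 35 were called lower and 0 higher, against 16.1% of all genes called lower and 20.2% higher. In T790M tumours against the same FVB normals 34 were called lower and 0 higher, against 17.9% of all genes called lower and 21.9% higher. The last 2 comparisons share their normal lungs, so they are given side by side and not as separate support.

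The differences were large as well as frequent. The members' median difference was -2.48 in L858R, -2.31 in L858R+T790M and -2.20 in T790M tumours, where the median of all genes was 0.05, 0.03 and 0.00. Called and at least 2-fold lower were 34, 33 and 32 members, against 6.65%, 5.23% and 5.07% of all genes. Tumour and matching normal arrays did not overlap for 36, 31 and 33 members, with the tumours lower in each case, and did not overlap in either direction for 35.8%, 29.8% and 29.8% of all genes. The members not called were Car4 and Esam in L858R tumours, Apln and Nos3 in L858R+T790M tumours, and Apln, Emcn and Mmrn2 in T790M tumours. Of the 69 member probe sets, all 69 had a difference below 0 in each comparison, and 64, 65 and 64 were called lower.

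**Figure D1:**
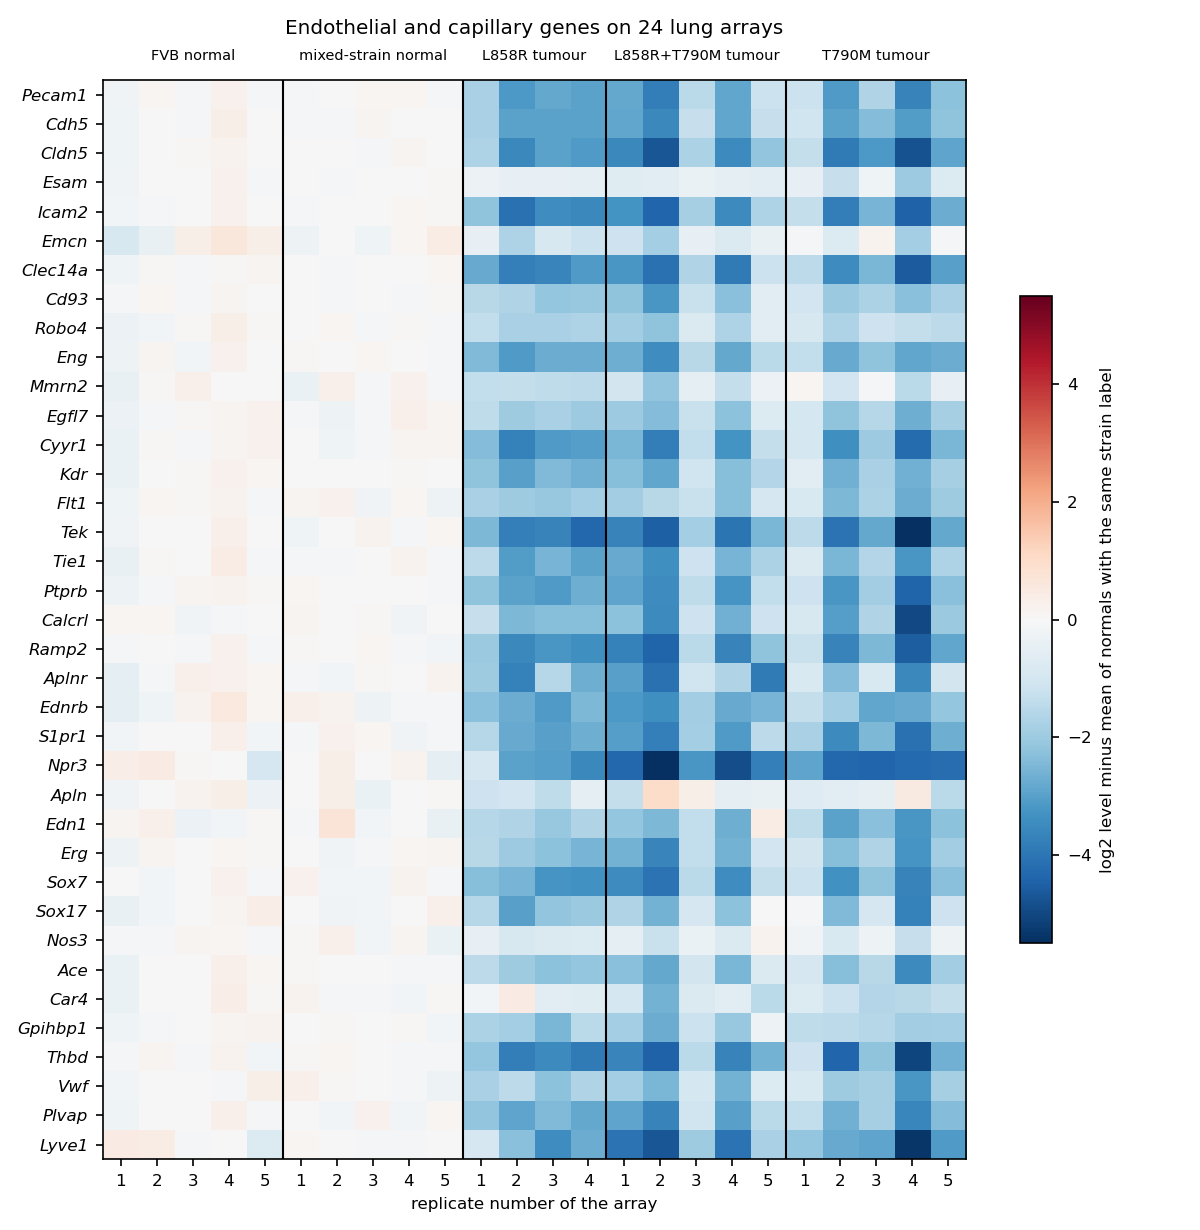
Colour shows each member's log2 level on each of the 24 arrays (columns, by group and replicate number) minus the mean of the normals with the same strain label. Blue fills the 14 tumour columns for nearly all 37 rows, palest for Esam, Emcn, Nos3, Mmrn2, Car4 and Apln, and L858R+T790M replicate 2 and T790M replicate 4 are the darkest columns.

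Of 13 genes of adhesion, junctions and the cell surface, 12, 13 and 11 were called lower in L858R, L858R+T790M and T790M tumours, with medians of -2.66, -2.36 and -2.34. Pecam1, the platelet endothelial adhesion molecule, stood at 11.92, 12.22, 12.06, 12.36 and 12.06 in FVB normals and 12.11, 12.18, 12.31, 12.33 and 12.14 in mixed-strain normals. It stood at 10.44, 9.06, 9.42 and 9.29 in L858R tumours, 9.29, 8.33, 10.63, 9.28 and 10.96 in L858R+T790M tumours and 10.95, 9.01, 10.47, 8.46 and 9.88 in T790M tumours. Every tumour was below every normal lung, and the tumours were spread far more widely than the normals. The differences were -2.66 ± 0.46, -2.43 ± 0.43 and -2.37 ± 0.43 (SE) in the 3 tumour groups, in the order L858R, L858R+T790M, T790M used from here on, which is 6.33-fold, 5.37-fold and 5.17-fold lower (adjusted p = 7.9e-05, 0.000142 and 0.000173). Cdh5, VE-cadherin of the adherens junction, differed by -2.66, -2.36 and -2.34, and Cldn5, the tight-junction claudin of endothelium, by -2.83, -3.14 and -3.21. Icam2, which holds leukocytes on resting endothelium, was lower by close to a factor of 10 in L858R tumours (9.91-fold) and by 7.61-fold and 7.78-fold in the others.

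Clec14a, a C-type lectin of the endothelial surface, was the most reduced of this class in L858R tumours. Its levels were 12.33, 12.61, 12.46, 12.63 and 12.71 in FVB normals and 12.61, 12.47, 12.64, 12.58 and 12.69 in mixed-strain normals, against 9.83, 8.84, 8.97 and 9.48 in L858R tumours. L858R+T790M tumours had 9.34, 8.43, 10.90, 8.66 and 11.38 and T790M tumours 11.10, 9.07, 10.04, 7.98 and 9.57. No tumour reached the lowest normal lung. The differences were -3.32 ± 0.52, -2.81 ± 0.49 and -3.0 ± 0.49 (adjusted p = 2.88e-05, 0.000121 and 5.93e-05). Its relative Cd93, which shares with it the matrix ligand Mmrn2, differed by -1.84, -1.91 and -1.79. Eng, endoglin, a co-receptor for BMP ligands, differed by -2.76, -2.37 and -2.38, Robo4, the endothelial roundabout receptor, by -1.66, -1.45 and -1.30, and Egfl7, a secreted endothelial matrix factor, by -1.77, -1.73 and -1.85. The probe set read for Cyyr1, a small membrane protein, differed by -3.06, -2.46 and -2.62, while its dimmer probe set moved by only -0.02, -0.09 and -0.15 and was not called.

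Esam, Emcn and Mmrn2 moved least in this class. Esam, an adhesion molecule of endothelial tight junctions that platelets also carry, stood at 12.17, 12.38, 12.36, 12.60 and 12.22 in FVB normals and 12.47, 12.42, 12.50, 12.48 and 12.54 in mixed-strain normals. L858R tumours had 12.18, 12.04, 12.01 and 11.96, L858R+T790M tumours 11.66, 11.75, 11.99, 11.82 and 11.77 and T790M tumours 11.89, 11.08, 12.10, 10.34 and 11.60. No tumour group overlapped its own normals, yet the gap was small outside T790M replicates 2 and 4: the differences were -0.43 ± 0.22, -0.55 ± 0.20 and -0.94 ± 0.20 (adjusted p = 0.115, 0.0398 and 0.000835). In L858R tumours Esam was called with array weights (-0.44, adjusted p = 0.0311) and in a fit of only the groups compared (-0.43, 0.000259). Emcn, endomucin, a sialoglycoprotein of capillary and venous surfaces, differed by -1.04 ± 0.38, -0.94 ± 0.36 and -0.53 ± 0.36 (adjusted p = 0.0316, 0.0443 and 0.26), and its FVB normals themselves ran from 9.28 to 10.80. Mmrn2, a matrix protein laid down by endothelium, differed by -1.39 ± 0.31, -1.07 ± 0.29 and -0.59 ± 0.29 (adjusted p = 0.000959, 0.00589 and 0.11).

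Leaving out single arrays changed several of these calls. The call of Emcn in L858R tumours was lost without L858R replicate 2 (-0.83, adjusted p = 0.118) or 4 (-1.0, 0.0668), or without mixed-strain normal replicate 2 (-1.03, 0.0526), 4 (-1.02, 0.0551) or 5 (-0.95, 0.0705). In L858R+T790M tumours Emcn lost it without FVB normal replicate 3 (-0.86, 0.0957), 4 (-0.78, 0.121) or 5 (-0.86, 0.0937), or tumour replicate 1 (-0.89, 0.0864), 2 (-0.70, 0.141) or 4 (-0.98, 0.0602). Esam in L858R+T790M tumours lost it without FVB normal replicate 2 (-0.54, 0.0687), 3 (-0.54, 0.0657) or 4 (-0.48, 0.0964), or tumour replicate 1 (-0.51, 0.0815), 2 (-0.54, 0.0682), 4 (-0.55, 0.0619) or 5 (-0.54, 0.0611). Mmrn2 in T790M tumours was called without T790M replicate 1 (-0.76, adjusted p = 0.0428) and against all 10 normal lungs (-0.90, 0.00878).

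Receptor tyrosine kinases of the vessel wall were all called lower in each comparison, 5 of 5 with their phosphatase. Tek, the receptor for angiopoietins that keeps vessels quiescent, had levels of 12.29, 12.45, 12.44, 12.74 and 12.48 in FVB normals and 12.20, 12.44, 12.64, 12.39 and 12.56 in mixed-strain normals. L858R tumours had 9.96, 8.69, 8.78 and 8.13, L858R+T790M tumours 8.79, 8.01, 10.62, 8.47 and 9.97 and T790M tumours 11.04, 8.44, 9.65, 6.97 and 9.66. The lowest tumour, T790M replicate 4, was more than 4 log2 units under the highest, T790M replicate 1, and both were below all normal lungs. Tek differed by -3.56 ± 0.58, -3.31 ± 0.54 and -3.33 ± 0.54 (adjusted p = 4.05e-05, 5.98e-05 and 5.54e-05), a fall of 11.8-fold, 9.9-fold and 10-fold. Tie1, its partner receptor, differed by -2.50, -2.31 and -1.96, and Ptprb, the endothelial phosphatase that restrains Tek, by -2.74, -2.47 and -2.59.

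Both VEGF receptors of the list were lower. Kdr, the main signalling receptor for VEGF-A, averaged 12.34 ± 0.04 (SD, n = 5) in mixed-strain normals and 9.77 ± 0.33 (SD, n = 4) in L858R tumours, and its differences were -2.57 ± 0.33, -2.05 ± 0.32 and -1.89 ± 0.32. Flt1, which binds VEGF-A tightly and can act as a decoy, differed by -1.92, -1.59 and -1.96 on its brightest probe set. Its 3 other probe sets gave smaller but called differences, of -1.04 to -1.0 in L858R, -0.76 to -0.53 in L858R+T790M and -1.04 to -0.83 in T790M tumours, so the size of the Flt1 change depended on the probe set.

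**Figure D2:**
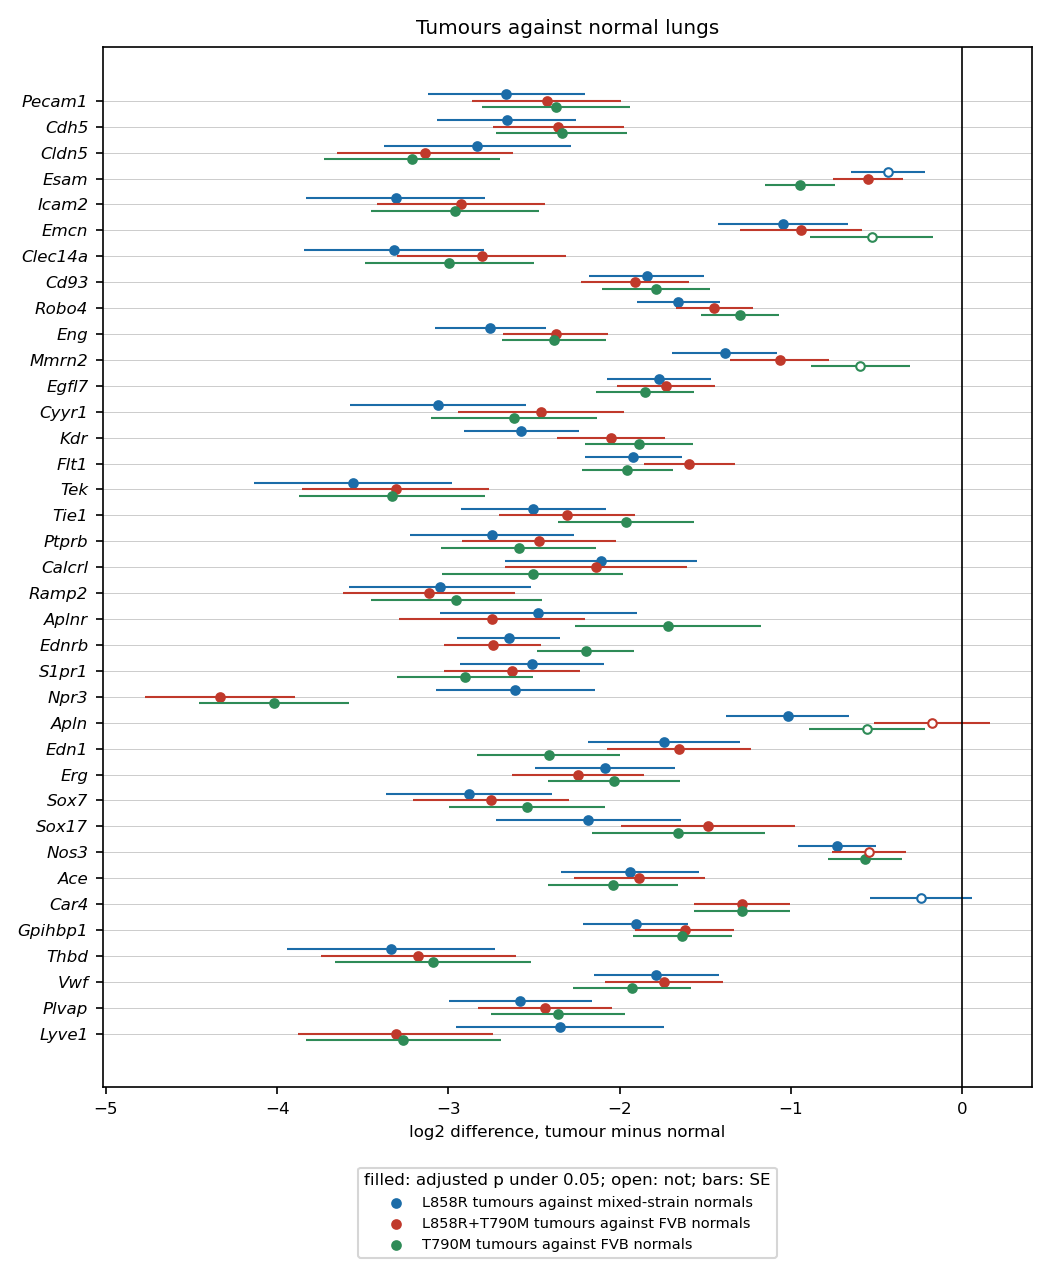
Points are log2 differences of tumours minus the normals with the same strain label, for 37 members in 3 comparisons, with bars of 1 SE, filled where the adjusted p was under 0.05. All points lie left of 0, and the open points are Esam and Car4 in L858R, Nos3 and Apln in L858R+T790M, and Emcn, Mmrn2 and Apln in T790M tumours.

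Receptors for circulating peptides and lipids fell together with the kinases, 6 of 6 called lower in each comparison. Calcrl and Ramp2 form the adrenomedullin receptor that keeps vessels tight. Calcrl differed by -2.11, -2.14 and -2.51 on the brightest of its 3 probe sets, and Ramp2 by -3.05, -3.11 and -2.95. Aplnr, the apelin receptor of general capillary cells, differed by -2.48 ± 0.58, -2.75 ± 0.54 and -1.72 ± 0.54. The T790M value of Aplnr (0.0147 adjusted) rested on T790M replicate 4, without which it was -1.27 with an adjusted p of 0.0563. Ednrb, the endothelin receptor that aerocytes carry, differed by -2.65, -2.74 and -2.20 on the brightest of its 3 probe sets. Its standard errors there were the lowest of the 6 receptors (0.30, 0.28 and 0.28). S1pr1, the receptor for sphingosine 1-phosphate that stabilises junctions, differed by -2.51, -2.63 and -2.90.

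Npr3, the clearance receptor that removes natriuretic peptides, showed the largest difference of the list in FVB mice. Its levels were 12.19, 12.31, 11.89, 11.88 and 10.93 in FVB normals, against 7.53, 6.32, 8.63, 6.96 and 8.10 in L858R+T790M and 8.92, 7.53, 7.46, 7.57 and 7.63 in T790M tumours. Mixed-strain normals had 10.64, 10.95, 10.58, 10.80 and 10.14 and L858R tumours 9.69, 7.70, 7.60 and 7.06. All tumours were below their normals, and 4 of the 5 FVB normals were above every mixed-strain normal. Npr3 was 20.1-fold lower in L858R+T790M (-4.33 ± 0.44, adjusted p = 2.26e-07), 16.2-fold lower in T790M (-4.02 ± 0.44, 6.77e-07) and 6.1-fold lower in L858R tumours (-2.61 ± 0.47, 0.000112). Its 2 further probe sets were also called lower in each comparison, by -1.18 and -2.86 in L858R, -2.25 and -4.11 in L858R+T790M and -2.24 and -3.96 in T790M tumours.

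Of the 2 peptide ligands of the list, both were called lower in L858R tumours and 1 in each FVB tumour group. Edn1, endothelin, the vasoconstrictor peptide, had levels of 10.46, 10.60, 9.98, 10.15 and 10.39 in FVB normals and 9.52, 10.33, 9.51, 9.62 and 9.22 in mixed-strain normals. L858R tumours had 8.06, 8.0, 7.55 and 7.98, L858R+T790M tumours 8.18, 7.83, 8.96, 7.61 and 10.73 and T790M tumours 8.93, 7.39, 8.0, 7.13 and 8.06. L858R+T790M replicate 5 lay above every FVB normal, and all other tumours lay below their normals. Edn1 differed by -1.74 ± 0.44, -1.65 ± 0.42 and -2.41 ± 0.42 (adjusted p = 0.00313, 0.00344 and 0.000101).

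Apln, apelin, the ligand of Aplnr, was called lower in L858R tumours and in neither FVB tumour group. Its levels were 9.40, 9.63, 9.82, 9.92 and 9.28 in FVB normals and 9.87, 10.18, 9.49, 9.88 and 9.91 in mixed-strain normals, against 8.73, 8.81, 8.47 and 9.38 in L858R tumours. L858R+T790M tumours had 8.31, 10.64, 9.93, 9.10 and 9.19 and T790M tumours 8.92, 9.03, 9.07, 10.12 and 8.13. Its highest tumour values were in L858R+T790M replicate 2 (10.64) and T790M replicate 4 (10.12), above all FVB normals, and these were the 2 tumours with the lowest mean over the whole list. L858R+T790M replicate 3 (9.93) was also just above the highest FVB normal (9.92), and its mean over the list was 10.40, among the highest of the tumours. The differences were -1.02 ± 0.36, -0.18 ± 0.34 and -0.56 ± 0.34 (adjusted p = 0.0264, 0.735 and 0.205). The L858R call was lost without L858R replicate 1 (-0.98, 0.0546), 2 (-1.01, 0.0537) or 3 (-0.89, 0.0808), or without mixed-strain normal replicate 2 (-0.94, 0.0587). With limma's array weights Apln was called lower in T790M tumours as well (-0.94, adjusted p = 0.00623).

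**Figure D3:**
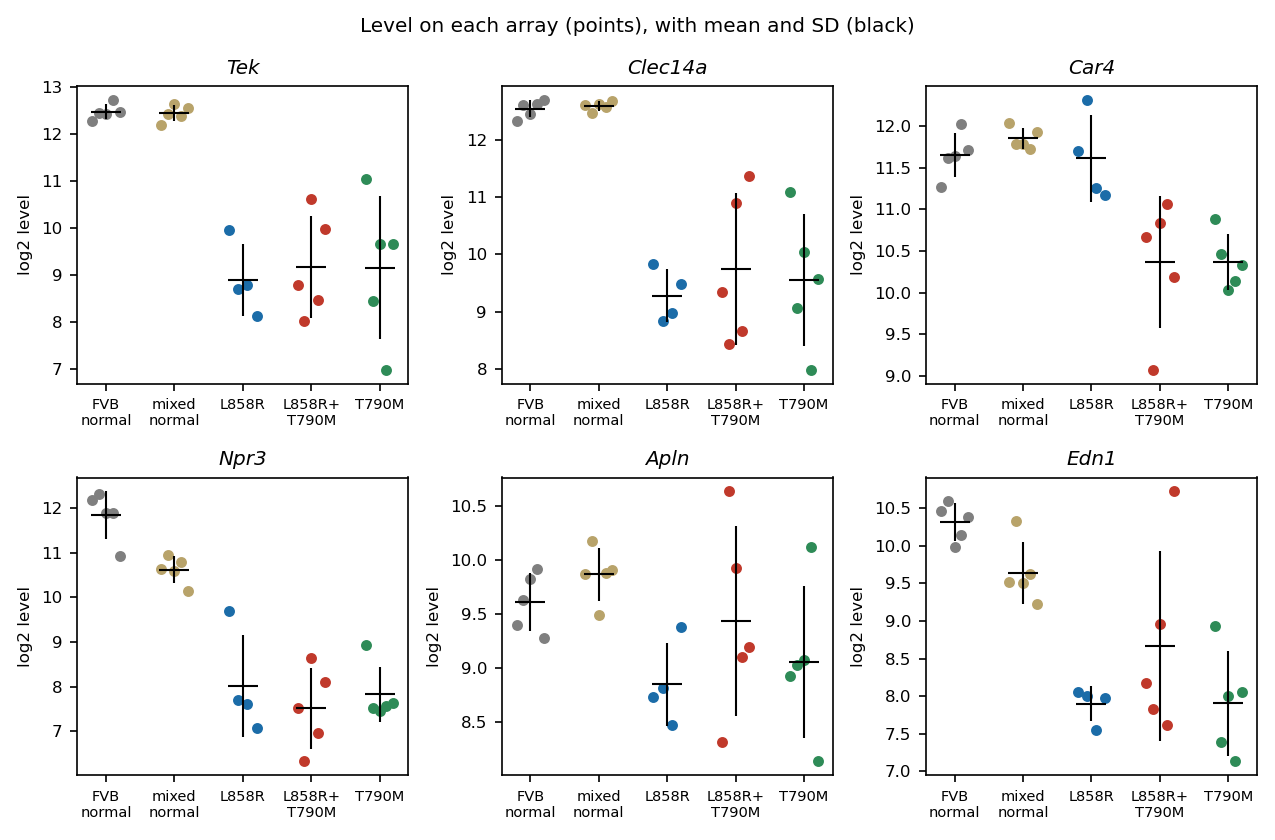
Each panel gives 1 member, with the log2 level on each array as a point by group and the group mean and SD in black; the vertical scale differs between panels and does not start at 0. Tek and Clec14a separate tumours from normals completely, Car4 in L858R tumours and Apln in FVB tumours overlap their normals, and 1 L858R+T790M tumour has Edn1 above all FVB normals.

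The transcription factors were lower in each comparison, 3 of 3 called. Erg, the ETS factor of mature endothelium, differed by -2.09 ± 0.41, -2.24 ± 0.39 and -2.03 ± 0.39. Sox7 and Sox17, SOX factors of vessel formation and arterial identity, differed by -2.88, -2.75 and -2.54 and by -2.18, -1.48 and -1.66. In L858R+T790M tumours Sox17 ranged from 8.09 to 10.72, with replicate 5 inside the range of the FVB normals (10.31 to 11.07). Its call there (0.0256) was lost without FVB normal replicate 5 (-1.39, adjusted p = 0.0567) or L858R+T790M replicate 2 (-1.2, 0.0815) or 4 (-1.30, 0.0717). A dim second probe set of Sox7 moved by only -0.09, -0.11 and -0.23.

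Of 5 enzymes and docking proteins of the endothelial surface, 4, 4 and 5 were called lower. Thbd, thrombomodulin, the thrombin receptor that turns on anticoagulation, was 10.1-fold, 9.04-fold and 8.52-fold lower (-3.33 ± 0.61, -3.18 ± 0.57 and -3.09 ± 0.57). Ace, the angiotensin-converting enzyme, differed by -1.94, -1.88 and -2.04, and Gpihbp1, which anchors lipoprotein lipase in capillaries, by -1.91, -1.62 and -1.63. Nos3, endothelial nitric oxide synthase, differed by -0.73 ± 0.23, -0.54 ± 0.21 and -0.57 ± 0.21 (adjusted p = 0.0127, 0.0517 and 0.0398). Nos3 was dim already in normal lungs, with means of 8.19 in FVB and 8.33 in mixed-strain normals. Array medians lay between 7.21 and 7.34. In L858R+T790M tumours Nos3 was called without replicate 5 (-0.73, adjusted p = 0.0057). In T790M tumours its call was lost without any of the 5 FVB normals (-0.59 to -0.53, adjusted p from 0.0504 to 0.0792) and without T790M replicate 2 (-0.50, 0.091) or 4 (-0.39, 0.139), and also with array weights (-0.34, 0.0546). In L858R+T790M tumours Nos3 was called under 5 other settings: arrays centred on their medians (-0.51, adjusted p = 0.046), quantile normalization (-0.54, 0.0394), dim genes dropped (-0.54, 0.0423), array weights (-0.58, 0.00271) and all 10 normal lungs as 1 group (-0.61, 0.00915).

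Car4, a carbonic anhydrase on the surface of aerocytes, was called lower in both FVB tumour groups and not in L858R tumours. Its levels there were 11.70, 12.32, 11.26 and 11.17, against 12.04, 11.78, 11.79, 11.72 and 11.93 in mixed-strain normals. L858R+T790M tumours had 10.67, 9.07, 10.84, 11.07 and 10.19 and T790M tumours 10.88, 10.46, 10.03, 10.14 and 10.33, against 11.27, 11.62, 11.64, 12.02 and 11.71 in FVB normals. L858R replicate 2 was above all normal lungs, while each L858R+T790M and T790M tumour was below every FVB normal. The differences were -0.24 ± 0.30, -1.28 ± 0.28 and -1.28 ± 0.28 (adjusted p = 0.547, 0.000922 and 0.000859), and a second probe set gave -0.15, -1.52 and -1.35.

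The members grouped as vessel-type markers were lower too, 3 of 3 in each comparison. Plvap, a diaphragm protein of endothelium, differed by -2.58, -2.43 and -2.36, and Vwf, the clotting factor stored in larger vessels, by -1.79, -1.74 and -1.93. Plvap averaged 13.17 in FVB and 13.18 in mixed-strain normals, and which lung vessels carry it was not tested. Lyve1, a hyaluronan receptor, differed by -2.35 ± 0.61, -3.31 ± 0.57 and -3.26 ± 0.57 (adjusted p = 0.00347, 9.92e-05 and 0.000112). Of 5 markers of tissue macrophages that can carry Lyve1, 4, 3 and 4 were also called lower and 1, 0 and 0 higher. Of all genes, 18.1%, 16.1% and 17.9% were called lower. The macrophage markers are given as values only. Their mean log2 level ran from 7.96 to 8.63 in FVB normals, 8.07 to 8.42 in mixed-strain normals, 7.15 to 7.73 in L858R, 6.95 to 8.55 in L858R+T790M and 6.91 to 8.04 in T790M tumours. Their part in the Lyve1 result was not tested.

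Tumours differed among themselves much more than normal lungs did, and mostly on all members at once. The mean over the 37 members ran from 11.44 to 11.86 in FVB normals and from 11.66 to 11.72 in mixed-strain normals. It ran from 9.23 to 10.06 in L858R, 8.5 to 10.40 in L858R+T790M and 8.40 to 10.61 in T790M tumours. The median SD of a member was 0.19 in FVB normals and 0.13 in mixed-strain normals, against 0.46, 1.01 and 0.85 in the tumour groups. Among the 14 tumours, T790M replicate 4 was the lowest for 19 members, L858R+T790M replicate 2 for 17 and T790M replicate 5 for 1 (Apln). T790M replicate 1 was the highest for 17 members and L858R+T790M replicate 5 for 12. Within L858R tumours, replicate 1 was the highest for 31 of the 37. Single members broke this order: Aplnr in L858R+T790M replicate 5 was 8.22, the second lowest of the 14, although that tumour had the third highest mean.

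Between tumour genotypes no member was called. In L858R+T790M against T790M tumours 0 of 37 members were called by limma, and 0 had an unadjusted p under 0.05, where 1.59% of all genes were called. The smallest p belonged to Esam (0.40, 95% interval -0.03 to 0.82, adjusted p = 0.33), and the widest gap was that of Aplnr (-1.03, -2.15 to 0.10). For Pecam1 the interval was -0.96 to 0.84 and for Tek -1.11 to 1.15. Against the L858R+T790M effect, after each tumour group's own normals had been subtracted, the L858R effect was called different for 0 members, with 2 at an unadjusted p under 0.05 and 0.0715% of all genes called. Against the T790M effect it was again called for 0 members, with 2 at an unadjusted p under 0.05 and 0.418% of all genes called.

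Npr3 and Car4 were the members with an unadjusted p under 0.05 in these strain-adjusted comparisons. For Npr3 the L858R difference minus the L858R+T790M difference was 1.72 (95% interval 0.39 to 3.05, adjusted p = 0.368), and minus the T790M difference it was 1.41 (0.08 to 2.74, 0.312). For Car4 both were 1.04 (0.20 to 1.89 against L858R+T790M, adjusted p = 0.394 and 0.236). The normal lungs bear on the Npr3 value: mixed-strain normals were below FVB normals by -1.22 (-2.13 to -0.31, unadjusted p = 0.0111, adjusted p = 0.177). In that comparison of normal lungs 0 members were called by limma, 2 had an unadjusted p under 0.05 (Npr3 and Mmrn2, 0.60), and 1.04% of all genes were called. That fit takes its spread from all 5 groups, and tumours varied more than normal lungs. A limma fit of the normal lungs alone called Npr3 (-1.22, adjusted p = 0.0126), Mmrn2 (0.60, 0.0267) and Edn1 (-0.68, 0.0404). Compared directly, without the normals, Car4 was higher in L858R tumours than in L858R+T790M or T790M tumours by 1.24 in both cases (adjusted p = 0.029 and 0.0183), and there strain and genotype cannot be told apart.

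A panel of 20 other endothelial genes, with no member in it, was used to ask which members fell more or less than those genes. The panel was dimmer than the members in normal lungs. Its mean was 10.27 in FVB and 10.33 in mixed-strain normals, against 11.66 and 11.69 for the members. How far this affects the values relative to the panel was not tested. Of the panel, 19, 19 and 18 genes were called lower and 0 higher, with medians of -1.85, -1.71 and -1.61. When the panel's mean on each array was subtracted from every gene and the fit repeated over all genes, the median of all genes moved to 1.78, 1.62 and 1.52. On that scale 18, 20 and 21 members were lower than the panel and 4, 5 and 5 higher, where 1.41%, 1.21% and 1.14% of all genes were lower and 93.8%, 94.6% and 94.1% higher. With so many genes called, the limma p-values were hardly changed by adjustment. For Esam in T790M tumours, p was 0.0249 before and 0.0265 after it. Calls relative to the panel are thus close to calls at an unadjusted p under 0.05. The panel's own genes split 6 lower and 4 higher, 5 and 5, and 5 and 5. The members' median was -0.74, -0.71 and -0.68, and with the median over a gene's probe sets it was -0.37, -0.34 and -0.50.

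Tek fell most beyond the panel in L858R tumours, by -1.82 ± 0.33 (adjusted p = 5.37e-06), with -1.71 and -1.81 in L858R+T790M and T790M tumours. Next in L858R tumours was Thbd at -1.60, -1.58 and -1.57 over the 3 groups, then Clec14a (-1.58, -1.21 and -1.48) and Icam2 (-1.57, -1.33 and -1.44). The order differed in FVB tumours, where Cldn5 (-1.09, -1.54 and -1.69) was further below the panel than Clec14a and Icam2. Ramp2 stood at -1.31, -1.52 and -1.44. Npr3 differed from the panel by -0.87 in L858R tumours, but with L858R replicate 3 left out the value was -0.75 (adjusted p = 0.0525) and with replicate 4 left out -0.62 (0.1). In L858R+T790M and T790M tumours Npr3 stood at -2.74 ± 0.32 and -2.50 ± 0.32 (adjusted p = 7.71e-09 and 5.09e-08). Lyve1 stood at -0.61 (adjusted p = 0.123), -1.71 and -1.74, and in L858R tumours it was called without replicate 1 (-0.93, 0.0267). Ednrb was called lower than the panel in each comparison (-0.91, -1.15 and -0.68). With the median over its 3 probe sets the values of Ednrb were -0.37, -0.11 and 0.0018, none of them called. Calcrl was called lower than the panel in T790M tumours (-0.99) and not in L858R (-0.37) or L858R+T790M tumours (-0.54). With the median over its 3 probe sets Calcrl was called lower in L858R (-1.39) and L858R+T790M tumours (-1.43) as well, so its size relative to the panel depended on the probe set.

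Other members fell less than the panel, and whether the low level of Nos3 in normal lungs limited its fall was not tested. Esam was higher relative to the panel by 1.30, 1.05 and 0.57, Nos3 by 1.0, 1.05 and 0.95, and Emcn by 0.69, 0.66 and 0.99. Of these, Esam in T790M tumours lost its call without FVB normal replicate 5 (0.54, adjusted p = 0.0561) or T790M replicate 2 (0.53, 0.0536), 3 (0.49, 0.0756) or 5 (0.54, 0.0531). Emcn lost it in L858R tumours without L858R replicate 3 (0.62, 0.0532), and in L858R+T790M tumours without FVB normal replicate 1 (0.50, 0.0777) or 2 (0.56, 0.0542) or L858R+T790M replicate 4 (0.56, 0.0523). Car4 was above the panel by 1.5 ± 0.31 in L858R tumours (adjusted p = 3.32e-05) and by 0.31 and 0.23, not called, in the others.

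Apln was above the panel by 1.42 ± 0.42 in L858R+T790M tumours (adjusted p = 0.00161) and by 0.96 in T790M tumours (0.0275), and by 0.72, not called, in L858R tumours. The T790M call was lost without FVB normal replicate 5 (0.87, 0.0596) or T790M replicate 2 (0.84, 0.0603) or 4 (0.52, 0.189). Mmrn2 was called above the panel in L858R+T790M (0.53) and T790M tumours (0.92), the first of these not without FVB normal replicate 1 (0.49, 0.0667) or 4 (0.48, 0.0715) or tumour replicate 1 (0.48, 0.07). Cd93, Egfl7, Flt1, Gpihbp1, Robo4, Sox17 and Vwf were not called against the panel in any of the 3 comparisons. The median over its probe sets put Flt1 above the panel, and called, in L858R (0.64, adjusted p = 0.0228) and L858R+T790M tumours (0.96, 0.000531), and without T790M replicate 1 Flt1 was called below it in T790M tumours (-0.52, 0.0436).

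**Figure D4:**
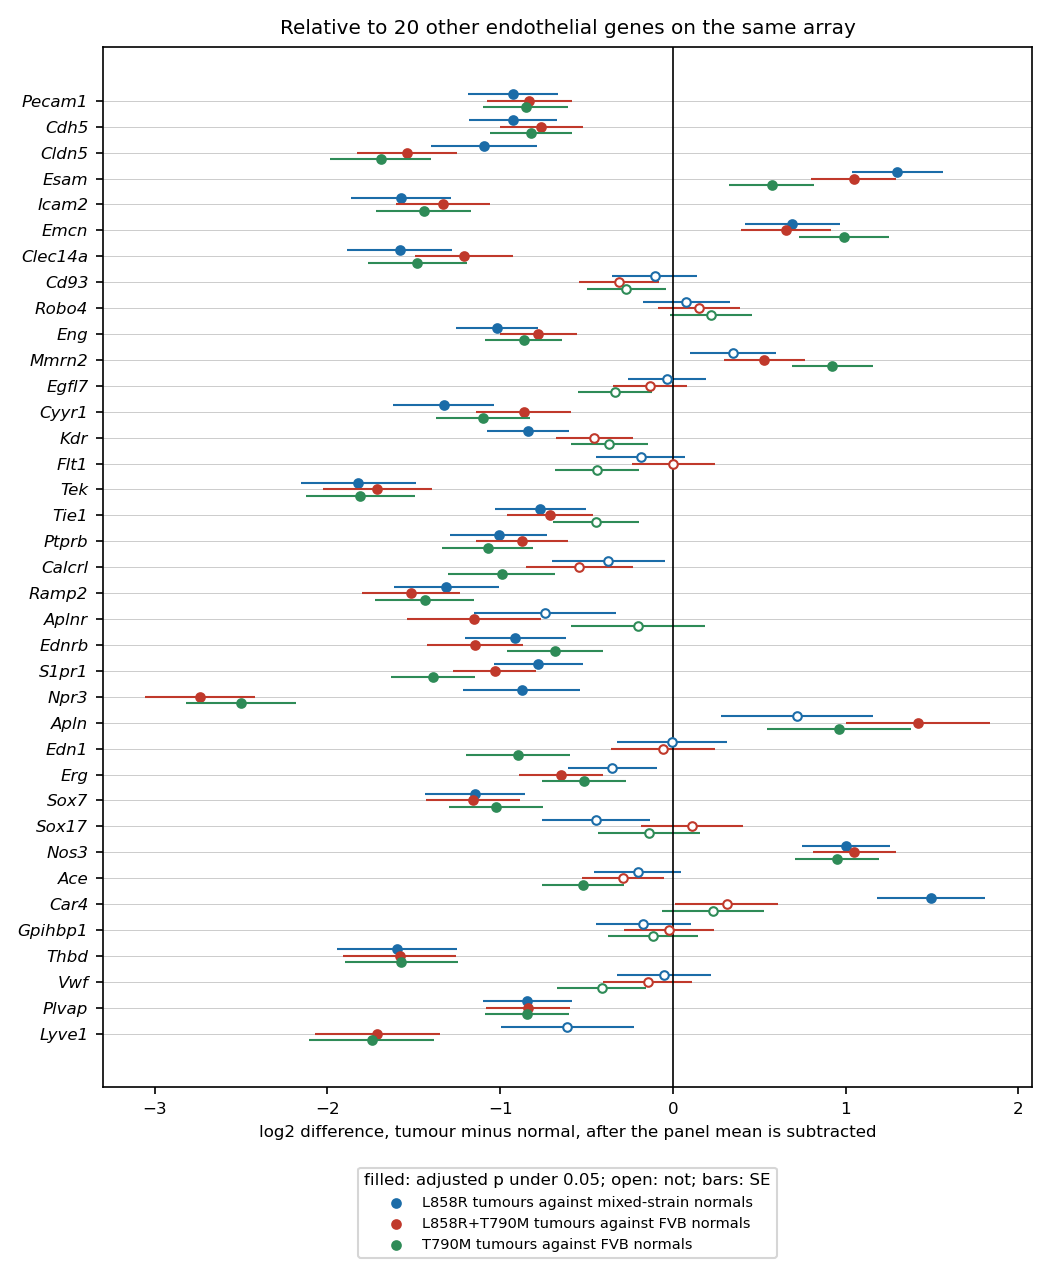
Points are the log2 differences of tumours minus normals after the mean of 20 other endothelial genes on the same array was subtracted, with bars of 1 SE, filled where the adjusted p was under 0.05. Tek, Thbd, Icam2 and Clec14a lie left of 0 in the 3 comparisons, Npr3 and Lyve1 lie further left in FVB tumours, and Esam, Nos3, Emcn and Apln lie right of 0.

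The ligands and partners of these receptors, 37 genes in 7 lists, did not all follow them. Called lower were 16, 16 and 17 of them and higher 4, 1 and 2, with medians of -0.54, -0.27 and -0.61. Of all genes, 18.1%, 16.1% and 17.9% were called lower and 23.3%, 20.2% and 21.9% higher. Of 8 VEGF ligands and co-receptors, 4, 5 and 5 were called lower. Vegfa, the ligand of Kdr and Flt1 that alveolar epithelium makes, ran from 11.99 to 12.34 in mixed-strain normals, 11.64 to 11.97 in FVB normals, 10.82 to 11.38 in L858R, 10.68 to 11.45 in L858R+T790M and 10.90 to 11.45 in T790M tumours, with no overlap. It differed by -1.07, -0.70 and -0.71 (adjusted p = 2.3e-06, 0.000181 and 0.000161). Vegfd, a ligand of lymphatic growth, differed by -3.94, -2.64 and -2.79, and Vegfb rose by 0.31 in L858R and 0.60 in T790M tumours. Angpt1, the ligand that activates Tek, was lower by -3.29, -2.67 and -2.63, whereas Angpt2, its context-dependent antagonist, was called lower in L858R tumours (-0.84) and not called in the others (-0.07 and -0.07).

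For the adrenomedullin pair Calcrl and Ramp2, the ligand Adm was not called (-0.60, 0.04 and -0.79), and the decoy receptor Ackr3 was lower (-1.29, -1.83 and -1.78). The Adm value of 0.04 includes L858R+T790M replicate 5 at 10.45. The remaining tumours of that group had 7.19 to 7.75, and FVB normals 7.49 to 8.55. Ramp1, which makes Calcrl a receptor for another peptide, was higher in L858R tumours by 1.73 (adjusted p = 0.00043) and not called in the others (0.34 and -0.14). Of the endothelin list, Ece1, which cuts endothelin from its precursor, was lower by -1.14, -1.25 and -1.39. Of the natriuretic list, called lower were 0, 1 and 1 of 5, where 18.1%, 16.1% and 17.9% of all genes were. Of the sphingosine list, 4 of 7 were lower in each comparison, led in L858R tumours by S1pr3 (-2.68). Gucy1b1, a subunit of the nitric oxide receptor in smooth muscle, was lower by -2.78, -2.49 and -1.99 beside the small change of Nos3, and Cav1 by -2.17, -2.12 and -2.13. Lpl, the lipase that Gpihbp1 anchors, was higher by 0.95 in L858R tumours and not called in the others (0.11 and 0.02).

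On the lists for kinds of vessel, apart from that of sprouting vessels, most genes were also called lower. Of all genes, 18.1%, 16.1% and 17.9% were called lower in the 3 comparisons. General capillary genes were called lower for 5, 4 and 5 of 5, led by Tmem100 (-4.12, -4.54 and -4.44) and Kit (-3.41, -2.83 and -2.59), and aerocyte genes for 5, 4 and 5 of 5, led by Tbx2 (-3.18, -2.30 and -2.09) and Chst1 (-2.64, -2.39 and -2.10). Arterial genes were lower for 6, 6 and 7 of 8, with Dkk2 higher by 1.73, 1.57 and 1.59. Venous genes were lower for 4, 4 and 3 of 6, led by Slc6a2 (-2.21, -3.34 and -3.81). Lymphatic genes were lower for 4 of 5 in each comparison, among them Sema3d (-2.36, -1.82 and -1.78) and Mmrn1 (-1.98, -1.38 and -1.43). Prox1, on the same list, lay between 3.87 and 4.30 on all 24 arrays, under the array medians of 7.21 to 7.34. Whether so low a reading could show a fall was not tested, and Ccl21a of that list was not measured. Of 10 genes of sprouting vessels, called lower were 4, 4 and 2, the T790M count being near the share of all genes, and Vwa1 was higher by 1.2, 1.03 and 1.40. These lists share genes, so their counts are not separate. Cxcl12 is on the general capillary and arterial lists and Dll4 on the arterial and sprouting lists. Flt4 is on the lymphatic and VEGF lists, and Angpt2, Pgf and Adm are on the sprouting list and the partner lists.

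Genes of other cells changed on the same arrays. For the counts that follow, 18.1%, 16.1% and 17.9% of all genes were called lower and 23.3%, 20.2% and 21.9% higher. Of 6 epithelial markers, 5, 6 and 5 were called higher and 0 lower, led by Krt18 (1.95, 2.31 and 2.15) and Epcam (1.60, 1.35 and 1.54). Their mean log2 level was 10.97 to 11.45 over all normal lungs and 11.96 to 12.77 over all tumours. Smooth muscle and pericyte markers were lower for 6, 5 and 4 of 6 (Myh11 -2.95, -2.54 and -2.16), fibroblast markers for 5, 3 and 3 of 6 (Tcf21 -4.28, -3.14 and -3.25, but Col1a1, not called, -0.43, 0.75 and 0.45), and alveolar type 1 markers for 5, 3 and 5 of 6, with 1, 1 and 0 higher. Of 6 leukocyte markers, 0, 2 and 2 were lower and 2, 0 and 0 higher. Of 6 platelet markers, 3, 1 and 4 were lower and 0, 1 and 1 higher, with Ppbp at -3.53, -2.78 and -3.15, and of 3 erythrocyte markers 0, 0 and 2 were lower. The difference of the 3′ and 5′ control probe sets of Gapdh, a sign of RNA quality, was -0.31 to -0.08 in normal lungs and -0.26 to -0.03 in tumours. How far the share of epithelium in a nodule sets the levels of the endothelial genes was not tested.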

How the data were processed

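Total RNA of 14 tumour nodules and 10 normal lungs was hybridised to single-colour arrays. The authors deposited log2 expression values per probe set, and RMA is the method that the submitters' processing notes name, its settings and version not given in the sources used here. Array medians lay between 7.21 and 7.34 and correlations between arrays between 0.917 and 0.996. The number of arrays limits the precision. Of 45101 probe sets, 64 were controls, 34945 were annotated to 1 gene and 932 to several in the platform annotation, and the rest were unnamed here. The values were used as deposited. 1 probe set per gene was kept by its mean over the 24 arrays, which left 18193 genes. For 34741 of the 1-gene probe sets the symbol was taken from RefSeq by Entrez identifier, whether or not it changed, and 204 kept the file's symbol.

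Group means were fitted for the 5 groups together with limma 3.58.1 in R 4.3.3 (lmFit, eBayes with trend, two-sided), with 19 residual degrees of freedom before moderation and Benjamini-Hochberg adjustment over all genes. Tumours were set against the normals with the same strain label, FVB tumour groups against each other, and L858R effects against theirs after each group's normals were subtracted. The fit relative to the panel subtracted the mean of 20 genes on each array before the same model. Members and lists were chosen with earlier results of these data known. Every member is named. Of the partner lists, Vegfa, Angpt1, Angpt2 and Adm are named, with the called genes of largest difference in either direction, and of other lists the 2 genes of largest absolute mean difference; further genes named, such as Vegfb, Ece1, Lpl, Dkk2, Vwa1 and Col1a1, were chosen after their values were seen. Of 181 list entries 177 were measured. Replicate numbers are shared between groups only as numbers, and a fit with them as a block was an alternative. On simulated data for T790M tumours against FVB normals over 18193 genes, 88 of 100 genes raised by 1 log2 unit and 100 of 100 lowered by 2 were called, with 6 calls on unchanged genes. In the simulation genes varied independently, each had the same spread in all groups, and few genes were changed. In the data tumours varied more than normals, members moved together and many genes were called. The simulation checks the code and gives no rate of false calls for the real comparisons.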

Additional observations from a re-analysis of the deposited data

Results flagged for a closer look

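In 6 of the 185 sets of arrays examined (37 members in 5 groups) 1 array stood far from the rest of its group, judged by its gap to the nearest array as a share of the group's range; chance gives this in about 1 set of 20. Cdh5 was 9.83 in L858R tumour replicate 1 against 8.69 in the nearest L858R tumour. Calcrl, in the same tumour, was 11.84 against 10.75. Edn1 was 7.55 in L858R tumour replicate 3, the lowest of its group, against 7.98. Npr3 was 8.92 in T790M tumour replicate 1 against 7.63. In mixed-strain normals, Tie1 was 10.81 in replicate 4 against 10.63, and Gpihbp1 was 11.89 in replicate 5, the lowest, against 12.08.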

How the results depend on the processing

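Most results kept their direction and call under the alternatives, which changed the centring, the probe set per gene, the filter on dim probe sets, the weights of arrays, the groups fitted, the normals used and the arrays included. Called lower were 33 to 35, 32 to 35 and 32 to 35 members with 1 array left out at a time, and 32 to 36, 32 to 36 and 31 to 35 under the other settings. With the median over a gene's probe sets the members' median in L858R tumours was -2.02. Between the normal lungs, array weights called 1 member lower and 1 higher (Npr3 -1.25 and Mmrn2 0.55), and a fit of only the groups compared called 2 lower and 1 higher. The direct difference of tumours called 1 member higher, Car4, in both comparisons with L858R. Relative to the panel, members called higher ranged from 3 to 4, 3 to 5 and 3 to 5 with 1 array left out, with 3 in L858R+T790M tumours without FVB normal replicate 1 and 3 in T790M tumours without FVB normal replicate 5 or T790M replicate 2. With the median over probe sets, relative values changed sign for Flt1 (0.64), Sox7 (0.17), Npr3 (0.24) and Cyyr1 (0.11) in L858R, Sox7 (0.0858) and Cyyr1 (0.24) in L858R+T790M, and Sox7 (0.0437), Ednrb (0.0018) and Cyyr1 (0.0478) in T790M tumours; the cause was not tested. Arrays with the same replicate number correlated no more than others (median 0.02 over 46 pairs, against -0.01 over 184), and with the replicate number as a block no member call changed except that of Aplnr relative to the panel in L858R tumours (-0.80, adjusted p = 0.0388). The deposited values carry no measure of signal over background.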

Other observations

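L858R+T790M tumour replicate 5, where Edn1 was 10.73, also had the highest level of its group for Adm, the adrenomedullin peptide, at 10.45, for Pgf, a ligand of Flt1, at 9.60, and for Angpt2 at 9.47. Pf4, a platelet chemokine gene, was called higher in L858R+T790M (1.34) and T790M tumours (2.04) and not in L858R tumours (0.12), while Ppbp, another platelet gene, was called lower in each.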
